A study of Mus musculus with 8 samples.

Results

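The mRNAs of 10 genes of the TGF-beta system were followed in fibro/adipogenic progenitors (FAPs) of *mdx* mice: the ligands *Tgfb1*, *Tgfb2* and *Tgfb3*, the receptors *Tgfbr1*, *Tgfbr2* and *Tgfbr3*, and the latent TGF-beta binding proteins *Ltbp1*, *Ltbp2*, *Ltbp3* and *Ltbp4*. They were taken by name from the 31053 genes of the count files, and earlier results of these data were known when they were chosen. All 10 passed the filter on low counts, as did 10181 genes in all. FAPs are mesenchymal cells of the muscle interstitium that can form fat cells or matrix-producing fibroblasts. They came from hind limb muscles of C57BL/10ScSn-Dmdmdx/J mice (*mdx*, an animal model of Duchenne muscular dystrophy that lacks dystrophin) aged 45 days, and every library of both groups carried this mutation, so that no comparison with healthy muscle was made here. Per the study's methods, cells depleted of CD45+ and CD31+ cells were sorted as ITGA7- SCA-1+ with high (SCA1-High-FAPs) or low (SCA1-Low-FAPs) surface SCA-1. Both groups were then grown for 5 days in growth medium (GM) with 20% serum and no differentiation stimulus, and total RNA was made into 3′ mRNA libraries, 4 per group, from 4 mice.

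TGF-beta is secreted in a latent form, in which the ligand dimer stays wrapped in its own cleaved propeptide. Latent TGF-beta binding proteins bind this propeptide and anchor the complex to fibrillin and fibronectin in the matrix, from which integrins and proteases free the ligand. Free ligand brings together the kinases TGFBR2 and TGFBR1, which phosphorylate SMAD2 and SMAD3, while TGFBR3 (betaglycan) is a co-receptor without kinase activity. In muscle, this pathway is known for driving FAPs towards matrix production and for restraining their conversion into fat cells.

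The stretches before *Tgfb1* and *Tgfb2* are shown because these genes had the lowest and the highest mean level of the 3 ligands in SCA1-High-FAPs. *Tgfb2* lay above *Tgfb3* in only 1 SCA1-High-FAPs library, and *Tgfb3* had the higher mean in SCA1-Low-FAPs. That of *Ltbp2* is shown because its mRNA differed between the cell states. The stretches are from the RefSeq promoter table (GRCm38.p6), which covered 8 of the 10 genes (all but *Tgfb3* and *Tgfbr3*). They run 5′ to 3′ on the strand of the gene, at chr7:25686752-25687001 (plus strand), chr1:186705990-186706239 (minus strand) and chr12:84876533-84876741 (minus strand). Each ends at the start of the gene in GENCODE M21, which for *Ltbp2* lies before the RefSeq start. Capitals mark GC boxes (GGGCGG on either strand) and TATA boxes (TATAAA on either strand).
Tgfb1: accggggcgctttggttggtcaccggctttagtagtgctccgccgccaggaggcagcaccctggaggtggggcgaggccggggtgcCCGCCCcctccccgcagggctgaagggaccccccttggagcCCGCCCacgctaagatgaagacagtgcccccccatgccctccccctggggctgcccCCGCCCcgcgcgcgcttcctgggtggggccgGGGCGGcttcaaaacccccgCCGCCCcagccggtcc
Tgfb2: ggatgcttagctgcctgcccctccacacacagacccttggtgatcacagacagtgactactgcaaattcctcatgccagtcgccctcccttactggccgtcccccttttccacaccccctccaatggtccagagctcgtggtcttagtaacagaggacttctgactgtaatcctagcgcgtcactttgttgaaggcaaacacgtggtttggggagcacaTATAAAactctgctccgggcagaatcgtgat
Ltbp2: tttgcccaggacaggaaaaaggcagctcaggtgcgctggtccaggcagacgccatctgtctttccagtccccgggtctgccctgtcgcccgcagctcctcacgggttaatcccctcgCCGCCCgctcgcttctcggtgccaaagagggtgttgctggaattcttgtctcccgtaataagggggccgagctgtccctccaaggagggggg
The *Tgfb1* stretch held 5 GC boxes and no TATA box, and the *Tgfb2* stretch held 1 TATA box, 31 bases before the start, and no GC box. The *Ltbp2* stretch held 1 GC box. The stretches are 250, 250 and 209 bases long, and the full windows of 300 bases held 6 GC boxes for *Tgfb1* and 2 for *Ltbp2*. Of all 32851 promoter windows of 300 bases in the table, 35.7% had at least 1 GC box and 13.6% at least 1 TATA box. These matches describe the letters of the windows only.

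Libraries held 1880561 to 3985656 counts on genes, and a gene at 3 counts, taken as the floor, stood at 0.753 to 1.60 CPM (counts scaled to a common library size, scaled by the normalisation factors of edgeR where single genes are given). Because each 3′ library gives about 1 read per transcript, counts were not divided by transcript length and CPM was compared between genes on that scale. The floor covers counting error only, whereas the SEs and 95% intervals of the log2 fold changes also hold the spread between libraries. *Ly6a*, which encodes SCA-1, went against the sort labels after the culture. It stood at 492, 789, 645 and 919 CPM in SCA1-High-FAPs and at 1100, 1080, 1156 and 1014 CPM in SCA1-Low-FAPs. Its log2 fold change (SCA1-Low-FAPs over SCA1-High-FAPs throughout) was 0.61, with an SE of 0.17 and an adjusted p-value of 0.0341, and this call was kept in 1 of the 8 fits that each left out 1 library, with adjusted p-values up to 0.0947. The cell states are therefore named here by their sort labels, given on surface protein before the culture.

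Markers of adipocytes and of dividing cells moved with the cell state. The summed level of 7 adipocyte markers was 395.7 to 3441 CPM in SCA1-High-FAPs and 23.8 to 148.8 CPM in SCA1-Low-FAPs, with 4 of the 6 tested markers higher in the former. The summed level of 5 genes of dividing cells was 475.5 to 662.3 CPM in SCA1-High-FAPs and 866.5 to 1309 CPM in SCA1-Low-FAPs, with all 5 higher in the latter. Of the 8 FAP markers, all of them with counts and summed to 8059 to 10660 CPM in SCA1-High-FAPs and 6879 to 10130 CPM in SCA1-Low-FAPs, 2 were higher and 2 lower in SCA1-Low-FAPs. The defining myogenic genes *Pax7*, *Myf5*, *Myod1* and *Myog*, the endothelial *Emcn* and the leucocyte genes *Adgre1* and *Itgam* were at 0 counts in all libraries, and the summed endothelial markers reached at most 7.39 CPM. The myogenic list, through *Itga7* and *Des* alone, summed to 0 to 6.59 CPM in SCA1-High-FAPs and 0 to 12.5 CPM in SCA1-Low-FAPs. The leucocyte list summed to 25.3 to 48.0 CPM against 12.5 to 19.4 CPM with *Lyz2* higher in SCA1-High-FAPs, the pericyte and smooth muscle list to 23.8 to 44.7 CPM against 27.3 to 67.0 CPM with *Cspg4* and *Myh11* higher and *Notch3* lower in SCA1-Low-FAPs, the Schwann list to 9.90 to 19.0 CPM against 5.45 to 8.70 CPM, and the tenocyte list to 16.3 to 47.9 CPM against 10.0 to 18.7 CPM. The part of these cells in the results below was not tested, and in bulk RNA fewer cells of a type and less RNA per cell cannot be told apart.

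Of the 10 TGF-beta genes, *Ltbp2* was higher in SCA1-Low-FAPs and *Tgfbr3* was higher in SCA1-High-FAPs, each by less than 1 log2 unit. The other 8 did not pass the test, with its limits of 0.05 on the adjusted p-value and of 0.5 on the size of the log2 fold change. These 2 calls make 20.0% of the 10 genes, where 7.68% of all tested genes were called (3.32% upwards and 4.36% downwards in SCA1-Low-FAPs). The 10 genes were chosen with earlier results of these data known, and this share was given no test. Groups without overlap were seen for 1 of the 10 genes and for 14.1% of all tested genes. The median log2 fold change was -0.09 over the 10 genes and 0.0003 over all tested genes, with 5 of the 10 above 0 and 5 below.

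**Figure D1:**
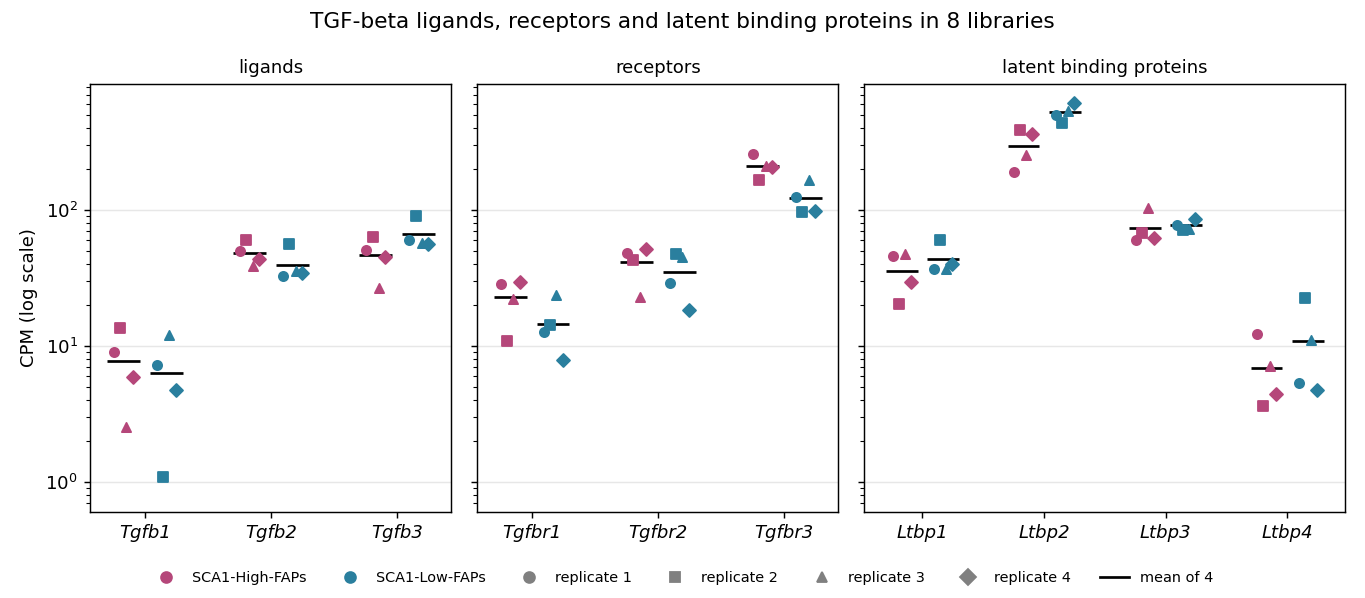
Level of each of the 10 genes in each of the 8 libraries, in CPM on a log axis, with colour for the cell state, marker shape for the replicate number and a bar for the mean of 4. *Ltbp2* and *Tgfbr3* lay above the other genes in both cell states, the 4 SCA1-Low-FAPs libraries of *Ltbp2* (439 to 611 CPM) lay above all 4 SCA1-High-FAPs libraries (189 to 384 CPM), and *Tgfb1* and *Ltbp4* lay lowest.

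The levels spread widely between genes. In SCA1-High-FAPs the order of the mean levels was *Ltbp2* (296 CPM), *Tgfbr3* (210 CPM), *Ltbp3* (73.0 CPM), *Tgfb2* (47.8 CPM), *Tgfb3* (46.5 CPM), *Tgfbr2* (41.3 CPM), *Ltbp1* (35.8 CPM), *Tgfbr1* (22.9 CPM), *Tgfb1* (7.72 CPM) and *Ltbp4* (6.84 CPM). Only the steps from *Tgfbr3* to *Ltbp3* and from *Ltbp3* to *Tgfb2* separated neighbours whose 4 libraries did not overlap. In SCA1-Low-FAPs the order was *Ltbp2* (522 CPM), *Tgfbr3* (122 CPM), *Ltbp3* (76.8 CPM), *Tgfb3* (65.9 CPM), *Ltbp1* (43.3 CPM), *Tgfb2* (39.4 CPM), *Tgfbr2* (34.8 CPM), *Tgfbr1* (14.5 CPM), *Ltbp4* (10.9 CPM) and *Tgfb1* (6.29 CPM). Here the steps from *Ltbp2* to *Tgfbr3* and from *Tgfbr3* to *Ltbp3* separated neighbours without overlap, and all other neighbours overlapped in their ranges.

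None of the 3 ligand genes passed the test. *Tgfb1* (chromosome 7, 25687002 to 25705077, plus strand, GRCm38) encodes the ligand most used to induce fibrosis in culture, and it was close to the floor. Its level was 8.95, 13.6, 2.51 and 5.87 CPM in SCA1-High-FAPs and 7.25, 1.09, 12.1 and 4.75 CPM in SCA1-Low-FAPs, from only 2 to 38 counts per library. The highest library of each cell state exceeded the lowest of the other, and the 2 counts of SCA1-Low-FAPs replicate 2 lay under the floor of 3. The log2 fold change of -0.26 had an SE of 0.63 and an adjusted p-value of 0.872, and its 95% interval from -1.58 to 1.07 spans differences of 1 log2 unit in either direction. Its sign turned to 0.16 without SCA1-High-FAPs replicate 2 and to 0.07 without SCA1-Low-FAPs replicate 2.

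*Tgfb2* (chromosome 1, 186622792 to 186705989, minus strand) encodes the isoform that depends most on the co-receptor TGFBR3 for binding to TGFBR2. It stood at 49.4, 59.7, 38.8 and 43.3 CPM in SCA1-High-FAPs and at 32.4, 56.1, 35.2 and 34.1 CPM in SCA1-Low-FAPs. Only SCA1-Low-FAPs replicate 2 reached into the range of SCA1-High-FAPs. With a log2 fold change of -0.28, it had an SE of 0.24 and an adjusted p-value of 0.549 (95% interval -0.79 to 0.22).

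*Tgfb3* (chromosome 12, 86056745 to 86079041, minus strand), which encodes the remaining isoform, had the opposite sign. Its level was 50.9, 63.3, 26.7 and 45.1 CPM in SCA1-High-FAPs and 59.9, 90.4, 56.8 and 56.5 CPM in SCA1-Low-FAPs. SCA1-High-FAPs replicate 2 lay above 3 of the 4 SCA1-Low-FAPs libraries, and the other 3 lay below all of them. The log2 fold change of 0.50 with an SE of 0.25 missed the threshold (adjusted p-value 0.270, 95% interval -0.03 to 1.03). The gene overlaps *Ttll5* on the other strand, and the strand setting of the counting is not given in the sources used here, so that reads of the overlap are uncertain.

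Within a library, the shares of *Tgfb2* and *Tgfb3* in the ligand counts did not overlap between the cell states, although their levels did. *Tgfb2* took 43.7% to 57.1% of the ligand counts in SCA1-High-FAPs and 32.5% to 38.0% in SCA1-Low-FAPs. *Tgfb3* took 39.3% to 47.9% in SCA1-High-FAPs and 54.6% to 61.3% in SCA1-Low-FAPs. The share of *Tgfb1* overlapped, at 3.68% to 9.93% in SCA1-High-FAPs and 0.738% to 11.6% in SCA1-Low-FAPs. The ratio of *Tgfb3* to *Tgfb2* counts, chosen after the values had been seen, was 1.03, 1.06, 0.688 and 1.04 in SCA1-High-FAPs and 1.85, 1.61, 1.61 and 1.66 in SCA1-Low-FAPs. These groups did not overlap, and SCA1-Low-FAPs replicate 2, the highest library of its cell state for both genes, had nearly the ratio of replicates 3 and 4. The summed ligand level was 68.1 to 136.5 CPM in SCA1-High-FAPs and 95.3 to 147.6 CPM in SCA1-Low-FAPs, and overlapped. The shares and the ratio largely restate each other, since *Tgfb1* took at most 11.6% of the ligand counts. They are descriptions and were given no test, and how often other pairs of genes separate in this way was not examined. Of all tested genes taken singly, 14.1% had groups without overlap.

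**Figure D2:**
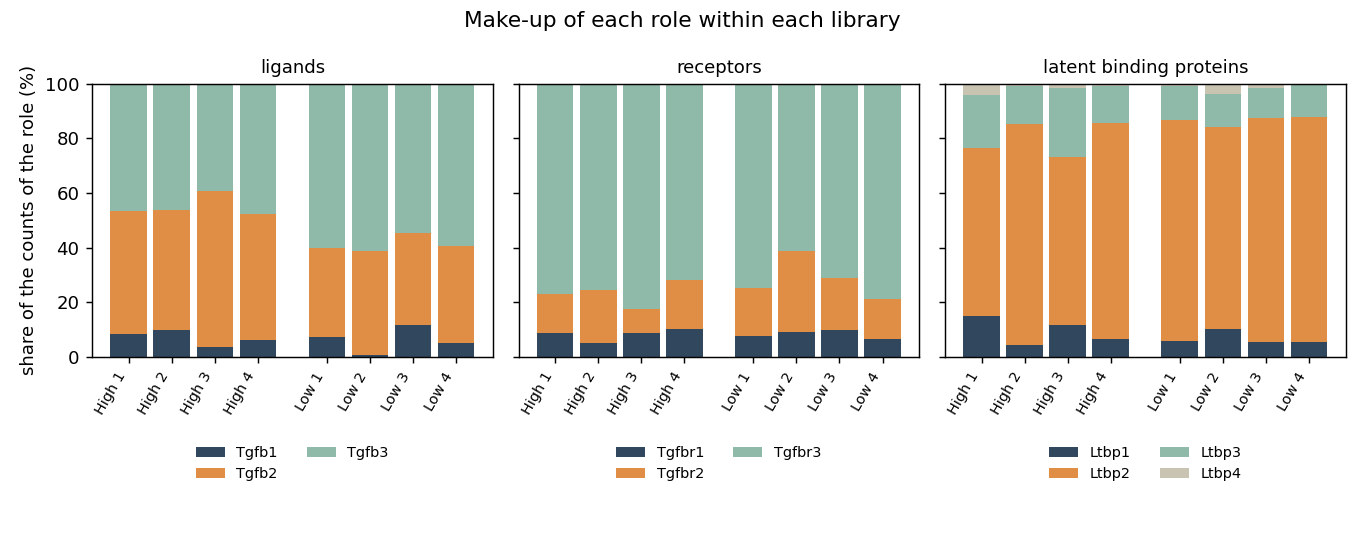
Share of the counts of each role (ligands, receptors, latent binding proteins) taken by each gene, in percent, in each of the 8 libraries. *Tgfb3* held 39.3% to 47.9% of the ligand counts in SCA1-High-FAPs and 54.6% to 61.3% in SCA1-Low-FAPs, and *Tgfbr3* and *Ltbp2* each held over 60% of the counts of their role in every library.

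Among the receptors, the co-receptor gene *Tgfbr3* was lower in SCA1-Low-FAPs, and the genes of both kinases did not pass the test. *Tgfbr3* (chromosome 5, 107106570 to 107289629, minus strand) encodes betaglycan, which presents ligand to TGFBR2 at the cell surface and, once shed, can bind ligand in solution. Its level was 257.5, 164.6, 211.3 and 206.8 CPM in SCA1-High-FAPs and 123.7, 96.9, 167.2 and 98.5 CPM in SCA1-Low-FAPs. The ranges met at 1 point, with SCA1-Low-FAPs replicate 3 just above SCA1-High-FAPs replicate 2. The means of 210 ± 38.0 and 122 ± 32.8 CPM (SD, n = 4) gave a log2 fold change of -0.79 with an SE of 0.19 and an adjusted p-value of 0.0171 (95% interval -1.19 to -0.38). The call was lost without SCA1-High-FAPs replicate 1, or without SCA1-Low-FAPs replicate 1, 2 or 4, where the adjusted p-value was at most 0.0649 and the log2 fold change -0.79 to -0.67. In the order of the replicates, the SCA1-High-FAPs libraries had summed adipocyte markers of 3441, 1165, 3062 and 395.7 CPM and the SCA1-Low-FAPs libraries of 74.0, 72.4, 148.8 and 23.8 CPM, and their part in the *Tgfbr3* difference was not tested.

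*Tgfbr1* (chromosome 4, 47353222 to 47414931, plus strand), the kinase that phosphorylates SMAD2 and SMAD3, stood at 28.7, 10.9, 22.1 and 29.7 CPM in SCA1-High-FAPs and at 12.6, 14.2, 23.5 and 7.92 CPM in SCA1-Low-FAPs. The groups overlapped, since SCA1-High-FAPs replicate 2 lay under 3 libraries of the other cell state. The log2 fold change of -0.65 came with an SE of 0.38 and an adjusted p-value of 0.348 (95% interval -1.45 to 0.15). *Tgfbr2* (chromosome 9, 116084293 to 116175360, minus strand), the kinase that binds free ligand, stood at 48.0, 42.5, 23.0 and 51.7 CPM in SCA1-High-FAPs and at 29.0, 47.4, 44.7 and 18.2 CPM in SCA1-Low-FAPs. Its groups overlapped widely, and the log2 fold change was -0.26 with an SE of 0.31 and an adjusted p-value of 0.708 (95% interval -0.92 to 0.40).

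The shares of the receptor genes in the receptor counts overlapped between the cell states. *Tgfbr3* took 71.8% to 82.4% of them in SCA1-High-FAPs and 61.2% to 79.0% in SCA1-Low-FAPs, *Tgfbr2* 8.96% to 19.5% and 14.6% to 29.9%, and *Tgfbr1* 4.98% to 10.3% and 6.36% to 9.97%. Against *Eng*, which encodes the other co-receptor of this kind (endoglin) and rose in SCA1-Low-FAPs, *Tgfbr3* counts stood at a ratio of 4.64, 2.70, 3.98 and 4.09 in SCA1-High-FAPs and 1.23, 0.805, 2.11 and 1.37 in SCA1-Low-FAPs. This ratio was chosen after the values had been seen and is a description. It did not overlap between the cell states, but neither did *Eng* alone.

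Among the latent binding proteins, *Ltbp2* was higher in SCA1-Low-FAPs and the other 3 genes did not pass the test. *Ltbp2* (chromosome 12, 84783212 to 84876532, minus strand), whose upstream stretch is printed above, encodes a fibrillin-binding matrix protein that, unlike its relatives, is not known to bind latent TGF-beta. Its level was 188.8, 384.3, 253.0 and 359.4 CPM in SCA1-High-FAPs and 501.2, 439.4, 537.3 and 610.6 CPM in SCA1-Low-FAPs. All SCA1-Low-FAPs libraries lay above all SCA1-High-FAPs libraries. The means of 296 ± 91.6 and 522 ± 71.5 CPM (SD, n = 4) gave a log2 fold change of 0.82 with an SE of 0.20 and an adjusted p-value of 0.0166 (95% interval 0.40 to 1.23). The call was lost without SCA1-Low-FAPs replicate 4 (adjusted p-value 0.0628, log2 fold change 0.73), and an antisense gene, *D030025P21Rik*, overlaps the locus.

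*Ltbp1* (chromosome 17, 75005568 to 75392512, plus strand), the binding protein first found with latent TGF-beta, stood at 46.1, 20.3, 47.2 and 29.3 CPM in SCA1-High-FAPs and at 36.7, 59.9, 36.5 and 40.1 CPM in SCA1-Low-FAPs. SCA1-High-FAPs fell into 2 higher and 2 lower libraries, with most of SCA1-Low-FAPs between them. The log2 fold change was 0.27 with an SE of 0.28 and an adjusted p-value of 0.642 (95% interval -0.32 to 0.86). *Ltbp3* (chromosome 19, 5740904 to 5758532, plus strand), which also binds latent TGF-beta, stood at 59.8, 67.4, 102.7 and 62.0 CPM in SCA1-High-FAPs and at 77.8, 71.3, 72.3 and 85.5 CPM in SCA1-Low-FAPs. Its groups overlapped through SCA1-High-FAPs replicate 3, the highest of all 8 libraries, and the log2 fold change was 0.07 with an SE of 0.20 and an adjusted p-value of 0.886 (95% interval -0.34 to 0.49). Without SCA1-High-FAPs replicate 1 the log2 fold change of *Ltbp3* was -0.0017.

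*Ltbp4* (chromosome 7, 27305136 to 27337692, minus strand) is known as a genetic modifier of muscular dystrophy in mice, and it was near the floor in these cells. It stood at 12.2, 3.62, 7.10 and 4.40 CPM in SCA1-High-FAPs and at 5.32, 22.3, 11.1 and 4.75 CPM in SCA1-Low-FAPs, from 8 to 41 counts per library. The groups overlapped, and SCA1-Low-FAPs replicate 2 was the highest library. The log2 fold change of 0.65 with an SE of 0.57 was not distinguishable from 0 (adjusted p-value 0.567, 95% interval -0.55 to 1.84).

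*Ltbp2* also set the sum of its role. The 4 binding protein genes together reached 307.0 to 475.6 CPM in SCA1-High-FAPs and 593.0 to 741.0 CPM in SCA1-Low-FAPs, and *Ltbp2* took 61.5% to 80.8% and 74.1% to 82.4% of their counts. The share of *Ltbp3* was 13.6% to 25.1% in SCA1-High-FAPs and 11.0% to 12.5% in SCA1-Low-FAPs. Against *Fbn1*, the fibrillin to which the binding proteins attach, *Ltbp2* counts stood at a ratio of 0.122, 0.177, 0.146 and 0.194 in SCA1-High-FAPs and 0.314, 0.357, 0.341 and 0.414 in SCA1-Low-FAPs. This ratio, chosen after the values had been seen and given no test, did not overlap between the cell states, but neither did *Ltbp2* alone.

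The tested genes whose log2 CPM followed the called genes most closely over the 8 libraries were *Dazap2*, *Lpgat1* and *Srgn* for *Tgfbr3* (Pearson's r 0.986, 0.981 and 0.977) and *St3gal5*, *Ddb1* and *Ncam1* for *Ltbp2* (0.976, 0.972 and 0.968). They were the highest of 10180 genes compared, and all these values come from the same 8 libraries. *Lpgat1*, *St3gal5* and *Ncam1* were themselves called, with log2 fold changes of -1.08, 1.01 and 0.76. *Dazap2*, *Ddb1* and *Srgn* did not pass the test (log2 fold changes -0.32, 0.21 and -2.62, adjusted p-values 0.274, 0.406 and 0.0674).

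Beyond the 10 genes, 73 other genes of the pathway were listed by role, and 66 could be tested. Of these, 19 (28.8%) were called, against the 7.68% of all tested genes given above, 10 of them upwards and 9 downwards in SCA1-Low-FAPs. Over the 66 genes the median log2 fold change was 0.12. The lists were drawn up with earlier results of these data known, and these shares were given no test. Of the 19 calls, 9 were kept in all 8 fits that each left out 1 library, namely *Lrrc32*, *Nrp1*, *Htra1*, *Pmepa1*, *Skil*, *Cnn1*, *Comp*, *Timp1* and *Cdkn1a*.

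**Figure D3:**
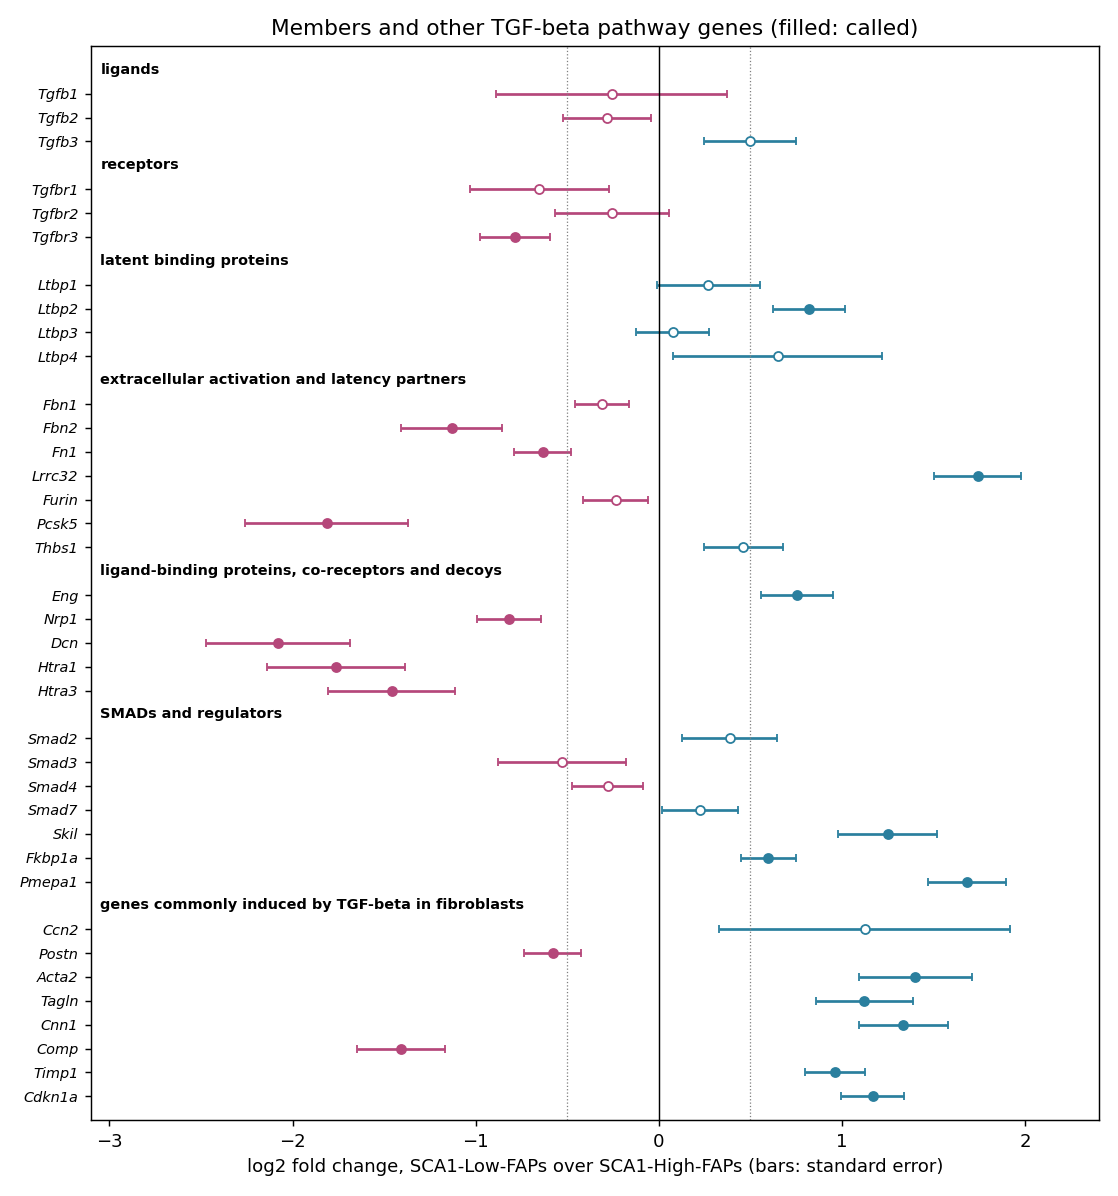
Log2 fold change (SCA1-Low-FAPs over SCA1-High-FAPs) of the 10 genes and of the other pathway genes named by the rule, grouped by role, with bars for the standard error, filled points for called genes and dotted lines at the limit of 0.5. Among the 10, *Tgfbr3* (-0.79) and *Ltbp2* (0.82) are filled, while *Lrrc32* (1.74) and *Pmepa1* (1.68) lie farthest to the right and *Dcn* (-2.08) farthest to the left.

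Of 16 tested genes that hold, cleave or release latent TGF-beta, 1 rose and 3 fell in SCA1-Low-FAPs, with a median log2 fold change of -0.23. *Lrrc32*, which encodes GARP, a membrane protein that holds latent TGF-beta on the cell surface, rose from 64.5, 52.0, 37.6 and 53.2 CPM in SCA1-High-FAPs to 219.0, 203.1, 95.8 and 175.8 CPM in SCA1-Low-FAPs. All libraries of one cell state lay above those of the other (log2 fold change 1.74, SE 0.24, adjusted p-value 0.000612). Of the matrix genes to which the binding proteins attach, *Fn1* (fibronectin) and *Fbn2* (fibrillin-2) fell by 0.64 and 1.13 on the log2 scale, whereas *Fbn1* (fibrillin-1) did not pass the test (log2 fold change -0.31, adjusted p-value 0.232). Of the convertases that cut the propeptide, *Pcsk5* fell by 1.81 on the log2 scale, and *Furin* did not pass (log2 fold change -0.24, adjusted p-value 0.497), nor did the activator gene *Thbs1* (log2 fold change 0.46, adjusted p-value 0.235). The calls of *Fbn2* and *Fn1* were lost without SCA1-Low-FAPs replicate 1 or 4, and that of *Fn1* also without SCA1-High-FAPs replicate 2 (adjusted p-values up to 0.0687 and 0.0881), while that of *Pcsk5* was kept only without SCA1-High-FAPs replicate 2 or SCA1-Low-FAPs replicate 3 (up to 0.101).

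Of 12 tested genes for other ligand-binding proteins, co-receptors and decoys, 1 rose and 4 fell in SCA1-Low-FAPs. This is 41.7% of the 12, against 7.68% of all tested genes, and the median log2 fold change was 0.05. *Eng* stood at 55.6, 61.0, 53.0 and 50.6 CPM in SCA1-High-FAPs and at 101.0, 120.3, 79.3 and 72.1 CPM in SCA1-Low-FAPs, without overlap and opposite in direction to *Tgfbr3* (log2 fold change 0.75, SE 0.20, adjusted p-value 0.0241). *Nrp1*, a co-receptor for several growth factors, fell by 0.82 on the log2 scale. *Dcn*, which encodes the ligand-binding proteoglycan decorin and is also one of the FAP markers, fell by 2.08, and the protease genes *Htra1* and *Htra3* fell by 1.76 and 1.46. The call of *Eng* was lost without SCA1-High-FAPs replicate 4 or SCA1-Low-FAPs replicate 1 or 2, that of *Dcn* without SCA1-Low-FAPs replicate 2 or 4, and that of *Htra3* without SCA1-High-FAPs replicate 3, with adjusted p-values up to 0.0828, 0.0537 and 0.0692.

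The 4 SMAD genes named did not pass the test. *Smad2* and *Smad3*, the direct targets of TGFBR1, had log2 fold changes of 0.39 and -0.53 (adjusted p-values 0.434 and 0.424), *Smad4*, their partner, -0.28 (0.452 adjusted), and the inhibitory *Smad7* 0.22 (0.599 adjusted). Of the 19 tested SMAD genes and regulators, 3 rose in SCA1-Low-FAPs and none fell. Over all tested genes, 3.32% rose and 4.36% fell, and the share of 15.8% called here was given no test. *Pmepa1*, a feedback inhibitor of SMAD signalling that TGF-beta itself induces, rose from 207.2, 254.5, 129.4 and 212.3 CPM to 752.6, 720.4, 423.1 and 683.5 CPM (log2 fold change 1.68, SE 0.21, adjusted p-value 0.000472). *Skil*, which encodes the SMAD repressor SnoN, rose by 1.25 on the log2 scale, and *Fkbp1a*, whose product binds TGFBR1, by 0.60. The call of *Fkbp1a* was lost in 4 of the 8 fits that left out 1 library, those without replicate 1 or 4 of either cell state (adjusted p-value up to 0.0962).

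Of 19 genes commonly induced by TGF-beta in fibroblasts, 5 rose and 2 fell in SCA1-Low-FAPs. Together these are 36.8% of the 19, against 7.68% of all tested genes, and the median log2 fold change was 0.20. *Acta2*, which encodes the smooth muscle actin of contractile fibroblasts, stood at 1090, 1446, 442.1 and 804.6 CPM in SCA1-High-FAPs and at 2739, 2924, 1939 and 2385 CPM in SCA1-Low-FAPs, without overlap (log2 fold change 1.40, SE 0.31, adjusted p-value 0.0213). The contractile gene *Cnn1* rose by 1.34 on the log2 scale, as did *Tagln* by 1.12, a gene first named after its values had been seen. *Timp1*, an inhibitor of matrix proteases, rose by 0.96 and *Cdkn1a*, an inhibitor of the cell cycle, by 1.17. The matrix genes *Comp* and *Postn* fell by 1.41 and 0.58, and *Ccn2* did not pass (log2 fold change 1.12, SE 0.80, adjusted p-value 0.50). The calls of *Acta2*, *Tagln* and *Postn* were each kept in 3 of the 8 fits that left out 1 library (adjusted p-values up to 0.0731, 0.0812 and 0.102). All 3 were lost without SCA1-High-FAPs replicate 1 or 4 and without SCA1-Low-FAPs replicate 1 or 4, *Tagln* and *Postn* also without SCA1-High-FAPs replicate 3, and *Acta2* without SCA1-Low-FAPs replicate 2. *Acta2*, *Tagln* and *Cnn1* are also genes of smooth muscle cells, and of the 5 markers of pericytes and smooth muscle *Cspg4* and *Myh11* were higher and *Notch3* was lower in SCA1-Low-FAPs, while *Rgs5* (mean level 3.28 against 1.91 CPM, SCA1-High-FAPs first) and *Mcam* (5.58 against 2.47 CPM) were too low to be tested.

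**Figure D4:**
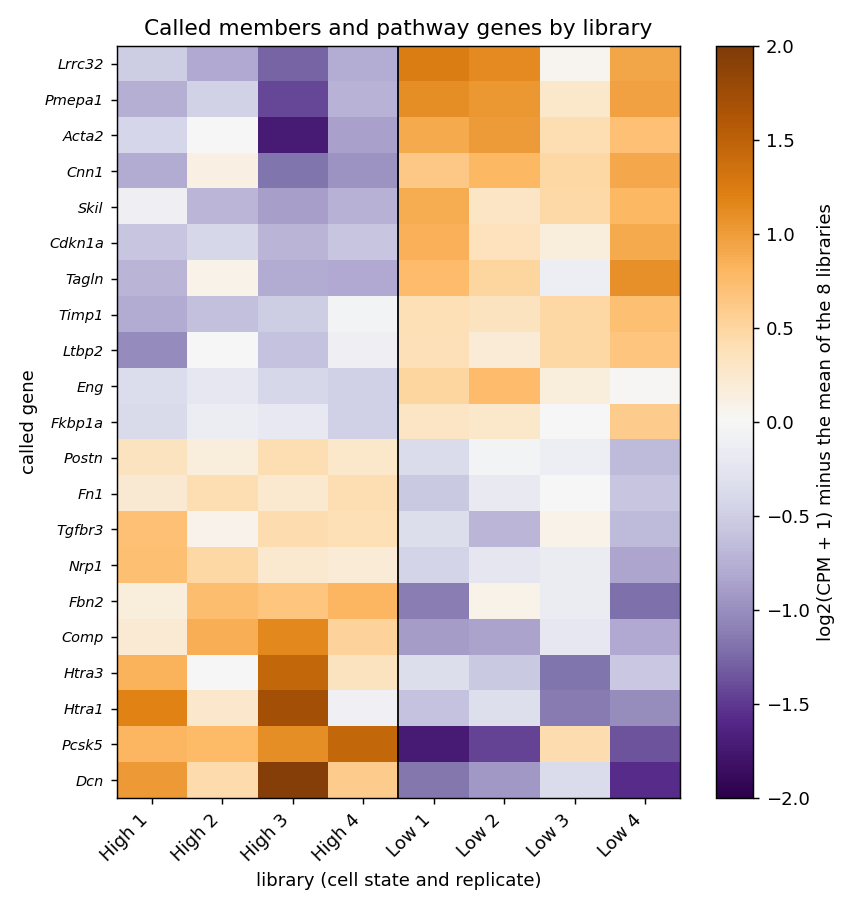
Level of the 21 called genes (2 of the 10 genes and 19 other pathway genes) in each of the 8 libraries, as log2(CPM + 1) minus the mean of the gene over the 8 libraries, ordered by fold change. SCA1-High-FAPs replicate 3 was the lowest library for 6 and the highest for 5 of the 19 other called pathway genes, and *Tgfbr3* and *Ltbp2* show smaller differences than *Lrrc32*, *Pmepa1* or *Dcn*.

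Single libraries set the extremes of several genes. SCA1-High-FAPs replicate 3 was the lowest of the 8 libraries for 23 of the 66 other pathway genes (34.8%) and for 18.8% of all tested genes, but for only 1 of the 10 TGF-beta genes, *Tgfb3*. SCA1-Low-FAPs replicate 2 was the highest for *Tgfb3*, *Ltbp1* and *Ltbp4* and the lowest for *Tgfb1* and *Tgfbr3*, against 15.8% and 16.8% of all tested genes. It was also the library with the fewest counts. SCA1-Low-FAPs replicate 3 was at neither extreme for any of the 10 genes.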

How the data were processed

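RNA from 8 libraries, 4 for each cell state, was analysed from the raw read counts per Ensembl gene that the authors deposited as whole numbers without normalisation. Per the paper's methods, the authors prepared QuantSeq 3′ FWD libraries, removed adapter, poly-A and poor-quality bases, aligned reads to mm10 with STAR and counted them with htseq-count on Ensembl genes. The submitters' processing notes also name bcl2fastq, Cell Ranger and DESeq2. The strand setting is not given in the sources used here, and molecular identifiers are not mentioned, so PCR copies may be counted. Reads aligned to several positions (37.5% to 43.3% of those tallied) had been given to no gene, which can lower genes with near-identical copies. The 5 summary entries of htseq-count were left out, and 31011 of 31053 identifiers were matched to GENCODE M21 (GRCm38) for names and positions. No 2 libraries held identical values.

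Counts were normalised by TMM and compared in edgeR 4.0.16 under R 4.3.3 by its quasi-likelihood test with robust estimation, over all genes kept by filterByExpr (minimum count 10, minimum total 15), with Benjamini-Hochberg adjustment over all 10181 genes. Every adjusted p-value is from edgeR unless DESeq2 is named. A gene was called where the adjusted p-value was under 0.05 and the size of the log2 fold change over 0.5. The SE was derived from the fold change and the F statistic of the test, and intervals are 95%. The floor is 3 counts per library. The scripts were tested on simulated data.

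Both cell states came from 4 mice, but no source says that equal replicate numbers mean 1 mouse, so the comparison took no pairing into account. After removal of the mean of each cell state, same-numbered libraries had correlations across genes of -0.05 to 0.0067, and libraries with other numbers of -0.282 to 0.255. These values do not settle whether equal numbers mean the same mouse. The members and gene lists were chosen with earlier results of these data known, and some genes are not reported here and were left out of the list counts. The genes named are the 10 members, up to 6 called genes per pathway list by lowest adjusted p-value, 11 pathway genes named whatever their call, the 3 genes most alike to each called member, and *Ly6a*. Alternatives were RLE factors, DESeq2 1.42.0, a filter of 1 count in total or of 10 counts in every library, a block for the replicate number in either tool, the omission of each library, a limit of 0.01 on the adjusted p-value and no limit on the fold change. Upstream sequences came from the RefSeq promoter table (GRCm38.p6). Figures were drawn in matplotlib 3.10.9 (Python 3.11.15), with a pseudocount of 1 on the log scale in the plot of called genes.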

Additional observations from a re-analysis of the deposited data

Results flagged for a closer look

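In 7 of the 76 groups of 4 libraries examined, 1 library lay far from the other 3, where chance gives about 1 in 20 such groups. SCA1-Low-FAPs replicate 2 was the highest of its cell state for *Tgfb2* at 56.1 CPM (others 32.4 to 35.2), for *Tgfb3* at 90.4 CPM (others 56.5 to 59.9), for *Ltbp1* at 59.9 CPM (others 36.5 to 40.1) and for *Thbs1* at 1487 CPM (others 1177 to 1199). SCA1-Low-FAPs replicate 3 was the highest for *Pcsk5* at 44.4 CPM (others 9.18 to 12.1) and for *Comp* at 48.2 CPM (others 29.5 to 31.4), in both cases towards the level of SCA1-High-FAPs. SCA1-High-FAPs replicate 2 was the highest of its cell state for *Tagln* at 386.1 CPM (others 207.6 to 219.9).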

How the results depend on the processing

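Of 530 values that the alternatives gave for 38 single genes, 474 kept their direction and their state as called or not called, 53 kept the direction and lost the call, and 3 changed sign. The 38 include genes not called in the main fit, which had no call to lose. The 530 values come from new fits only. The limit of 0.01 on the adjusted p-value, whose counts are given below, and the lack of a fold change limit are not among them. Of the 304 values with 1 library left out, 253 kept both, 48 lost the call and 3 changed sign. The sign changes were all among genes not called and with 1 library left out: *Tgfb1* (-0.26, range -0.80 to 0.16 on the log2 scale) and *Ltbp3* (0.07, range -0.0017 to 0.28). Leaving out 1 library gave 410 to 1017 called genes in all, lowest without SCA1-Low-FAPs replicate 4 and highest without SCA1-Low-FAPs replicate 3, 0 to 2 of the 10 TGF-beta genes, and 11 to 21 other pathway genes. At an adjusted p-value under 0.01, 307 genes, 0 of the 10 and 9 other pathway genes were called. *Tgfbr3* and *Ltbp2* were both called by DESeq2, with RLE factors, with either filter, with no limit on the fold change and with the replicate block. *Tgfb1* and *Ltbp4* had no value with the filter of 10 counts in every library, since they had fewer. With the replicate block in edgeR, 697 genes, 2 of the 10 and 17 other pathway genes were called, and *Fkbp1a* (adjusted p-value 0.0665), *Postn* (0.0518) and *Ly6a* (0.0573) lost their call, while with the block in DESeq2 the counts were 838, 2 and 20. Without a filter, *Pcsk5* (0.0682) and *Acta2* (0.0867) lost theirs. The cause of these losses was not tested. *Tgfb1* and *Ltbp4*, with 2 to 41 counts per library, had the largest SEs of the 10 genes (0.63 and 0.57). These SEs also hold the spread between libraries, and the part of depth in them was not tested.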
